A study of Mus musculus with 11 samples.

Results

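Glutathione transferases and UDP-glucuronosyltransferases are the liver's main conjugating enzymes, and their transcripts were examined here in db/db mice, which are obese and diabetic because their leptin receptor does not work. The genes were those whose symbols begin with Gsta, Gstk, Gstm, Gsto, Gstp, Gstt, Mgst, Ugt1a, Ugt2a, Ugt2b or Ugt3a, followed by a digit. On the array 38 genes met this rule, 24 glutathione transferases and 14 glucuronosyltransferases, represented by 55 of 39429 gene probes. Gstt4, a theta-class transferase, was not well above background on any of the 11 arrays, which left 37 genes with 54 probes among 15970 tested genes. Ugt1a1, Ugt1a2, Ugt1a5, Ugt1a7c, Ugt1a8, Ugt1a9, Ugt2a2 and Gstm2-ps1 were not analysed here. All animals were of db/db genotype. One group of 6 liver samples, numbered 1 to 6, came from mice given the anti-GCGR mAb 3c7.v44 at 5 mg/kg, which binds the receptor of the hormone glucagon (GCGR), and the other of 5 samples, numbered 1, 3, 4, 5 and 6, from mice given phosphate-buffered saline (PBS). The age of the animals and the length of treatment are not given in the sources used here, and lean animals were not analysed here. Whether every sample is its own mouse is not stated in the labels, and the p-values therefore reflect sample-to-sample spread that may in part be technical.

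Glutathione transferases join the tripeptide glutathione to reactive, electrophilic compounds, which are then exported and processed to mercapturic acids. The cytosolic enzymes are grouped by sequence into alpha (Gsta), mu (Gstm), pi (Gstp), theta (Gstt) and omega (Gsto) classes, the kappa enzyme (Gstk1) resides in mitochondria and peroxisomes, and the microsomal enzymes (Mgst) are a separate family of membrane proteins. Glucuronosyltransferases of the endoplasmic reticulum (Ugt1a, Ugt2a, Ugt2b) transfer glucuronic acid from UDP-glucuronate to bilirubin, steroids, bile acids and drugs, whereas Ugt3a enzymes use other UDP-sugars. In rodent liver many of these genes are induced by chemicals through the factors NRF2, CAR, PXR and AHR.

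Each array carried liver cRNA labelled with Cy5 and a commercial pooled mouse reference RNA labelled with Cy3. A level is therefore given as a log2 ratio of liver over reference, and a log2 fold change is the difference of the mean log2 ratios, anti-GCGR minus PBS, with its moderated standard error (SE). Because each gene is read against its own reference signal, levels of different genes are not compared. A gene is said to have risen or fallen when limma's moderated test gave an adjusted p under 0.05 over all tested genes (Benjamini-Hochberg). The transferases include near-identical paralogs, such as Gstp1 with Gstp2 and Gsta1 with Gsta2. Probe sequences were not used here, and whether a probe reads more than 1 paralog was not tested.

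Median Cy5 signals were 85 to 110 per array against local backgrounds of 26 to 27 in unlogged scanner units, and 66.2% to 77.1% of gene spots were well above background, and the number of arrays limits the precision. One array stood apart from its group. For each of the 2338 genes of the whole array that passed the threshold, the anti-GCGR array closest to the PBS mean was found. It was replicate 5 in 67.7% of them, and each of the other anti-GCGR arrays in 3.93% to 8.04%. The median Cy5 signal of 106 and the 75.9% of spots above background of anti-GCGR replicate 5 lay within the range of the other arrays. The transferases that passed or came near the threshold, and the counts of each gene list, are therefore given with and without it. Gcgr itself, which the antibody binds as a protein, differed by 0.18 ± 0.07 log2 units between the groups (SE, limma adjusted p = 0.108).

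With all arrays, 5 of the 37 tested transferase genes passed the threshold, 3 higher (Gstp1, Gstp2 and Gstp3) and 2 lower (Gstm7 and Gstt3) in anti-GCGR livers. These 5 genes are 13.5% of the 37, where 14.6% of all tested genes passed, 8.98% higher and 5.66% lower, so the share was near that of the array as a whole. All 5 were glutathione transferases, 5 of 23, and none was a glucuronosyltransferase, 0 of 14; whether the families differ in their share was not tested. At an unadjusted p under 0.05, 9 glutathione transferases lay higher and 9 lower, against 0 and 2 glucuronosyltransferases, while 30.5% of all genes met that limit. For none of the 37 genes were the ranges of the 6 anti-GCGR and 5 PBS arrays separate, compared with 6.64% of all genes. The median log2 fold change was -0.04 over the 37 genes and 0.01 over all genes, with 14 positive and 23 negative values. How many transferases passed also moved with the scaling of the arrays. The scanner software's ratio gave 2 higher and 1 lower, where 6.13% and 7.42% of all genes passed in those directions. Median centring with no loess gave 3 higher and 9 lower, against 3.64% and 13.4% of all genes, and the Cy5 channel alone gave 5 higher and 4 lower, against 7.36% and 6.98%. In these bulk samples, fewer cells of a type and less RNA per cell cannot be told apart.

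**Figure D1:**
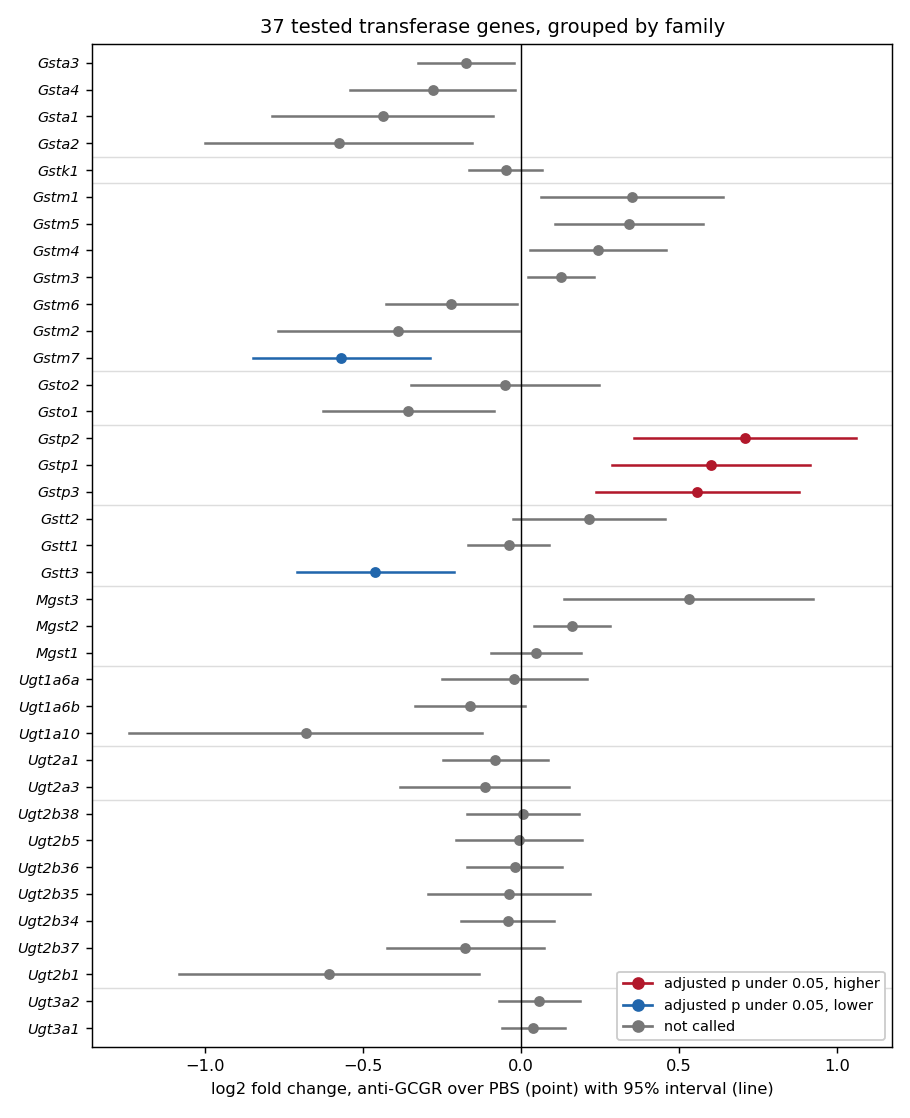
Log2 fold change of each of the 37 tested transferase genes, anti-GCGR over PBS (horizontal axis, log2 units), with its 95% interval as a line and genes grouped by family from top to bottom. The 3 Gstp genes lie to the right of 0 and Gstm7 and Gstt3 to the left as the only genes past the threshold, and the points of most Ugt2b and Ugt3a genes lie close to 0.

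The pi-class genes moved together. The pi enzymes conjugate a broad range of electrophiles and also bind the stress kinase JNK. Gstp1, Gstp2 and Gstp3 are neighbours on chromosome 19, and the sequences before their starts are shown because the 3 genes rose together on these arrays. Each runs over 250 bases to the transcription start, from RefSeq on build GRCm38.p6, with capitals for a match to the AP-1 motif TGANTCA (either strand), a site bound by Jun and Fos proteins.
Gstp1, chr19:4037913-4038162, minus strand: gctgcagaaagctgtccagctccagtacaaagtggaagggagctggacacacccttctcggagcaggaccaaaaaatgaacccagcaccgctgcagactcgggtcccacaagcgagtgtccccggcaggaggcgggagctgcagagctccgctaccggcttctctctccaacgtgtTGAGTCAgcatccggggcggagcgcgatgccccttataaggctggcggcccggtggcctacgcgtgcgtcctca
Gstp2, chr19:4042222-4042471, minus strand: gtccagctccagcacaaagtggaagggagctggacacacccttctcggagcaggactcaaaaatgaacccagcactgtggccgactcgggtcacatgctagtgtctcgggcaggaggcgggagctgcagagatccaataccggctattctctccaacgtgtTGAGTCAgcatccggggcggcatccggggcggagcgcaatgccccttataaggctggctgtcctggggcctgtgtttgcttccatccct
Gstp3, chr19:4059448-4059697, minus strand: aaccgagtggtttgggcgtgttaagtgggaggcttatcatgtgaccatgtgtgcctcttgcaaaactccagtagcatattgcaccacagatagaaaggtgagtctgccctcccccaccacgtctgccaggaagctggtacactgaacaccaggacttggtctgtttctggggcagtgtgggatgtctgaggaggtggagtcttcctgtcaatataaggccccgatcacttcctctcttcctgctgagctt
The stretches of Gstp1 and Gstp2 were identical at 78.1% of aligned positions, that of Gstp3 matched them at 39.5% and 41.1%. The match begins 74 bases before the Gstp1 start and 89 bases before the Gstp2 start, and in both it is part of the longer NF-E2 sequence TGAGTCAGC. TGAGTCAGC, chosen after the sequences were seen, occurred on either strand in 0.414% of 32851 promoter windows of 300 bases (250 before and 50 after a start), and TGANTCA, which it contains, in 7.81%. No such letters occur in the Gstp3 stretch.

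Gstp2 had log2 ratios of 0.68 (lowest), 1.42 (median) and 1.64 (highest) in anti-GCGR livers, and of 0.62, 0.31, 0.51, 0.91 and 0.49 in PBS livers. Apart from replicate 5, every anti-GCGR array lay above every PBS array, and the lowest anti-GCGR value was that of replicate 5, inside the PBS range. Gstp2 was 1.63-fold higher, a log2 difference of 0.71 ± 0.16 (SE), with an adjusted p of 0.0154 by limma. It was 0.83 ± 0.13 without replicate 5 (adjusted p = 0.00067).

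Gstp1 ran in parallel, with 0.51 (lowest), 1.12 (median) and 1.35 (highest) in anti-GCGR livers against 0.41, 0.18, 0.41, 0.76 and 0.34 in PBS livers. Again replicate 5 of the antibody group was the one that lay among the PBS values, and PBS replicate 5 was the highest of its group. Its rise was 1.52-fold (log2 0.60 ± 0.14, limma adjusted p = 0.0179), and 0.70 ± 0.12 in log2 units without anti-GCGR replicate 5. Second probes of Gstp1 and Gstp2 gave 0.65 and 0.67 and also passed.

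Gstp3, the remaining pi-class gene, had 1.33 (lowest), 1.77 (median) and 2.04 (highest) in anti-GCGR livers against 1.17, 0.82, 1.58, 1.28 and 0.94 in PBS livers. Here PBS replicate 4 lay above both anti-GCGR replicates 2 and 5, so the groups overlapped more broadly. The difference was 1.47-fold (log2 0.56 ± 0.15, limma adjusted p = 0.0266), and 0.63 ± 0.14 in log2 units without anti-GCGR replicate 5. This call was the least stable of the 5. It held in 4 of the 11 fits that each left out 1 array, those that dropped PBS replicate 4, PBS replicate 5, anti-GCGR replicate 2 and anti-GCGR replicate 5, and in the other fits the adjusted p reached 0.0688. With the scanner software's own ratio Gstp3 differed by 0.43 (adjusted p = 0.420).

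The arrays were spread over 3 slides, each with samples of both groups. Within the slides, the difference of means for Gstp2 was 0.86, 0.25 and 0.84 on slides 1, 2 and 3, for Gstp1 0.73, 0.17 and 0.73, and for Gstp3 0.52, 0.12 and 0.97. The sign was the same on each slide, and the small middle value belongs to the slide that held anti-GCGR replicates 2 and 5 and PBS replicate 5. With slide as a block in the fit, all 5 calls among the transferases were kept.

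**Figure D2:**
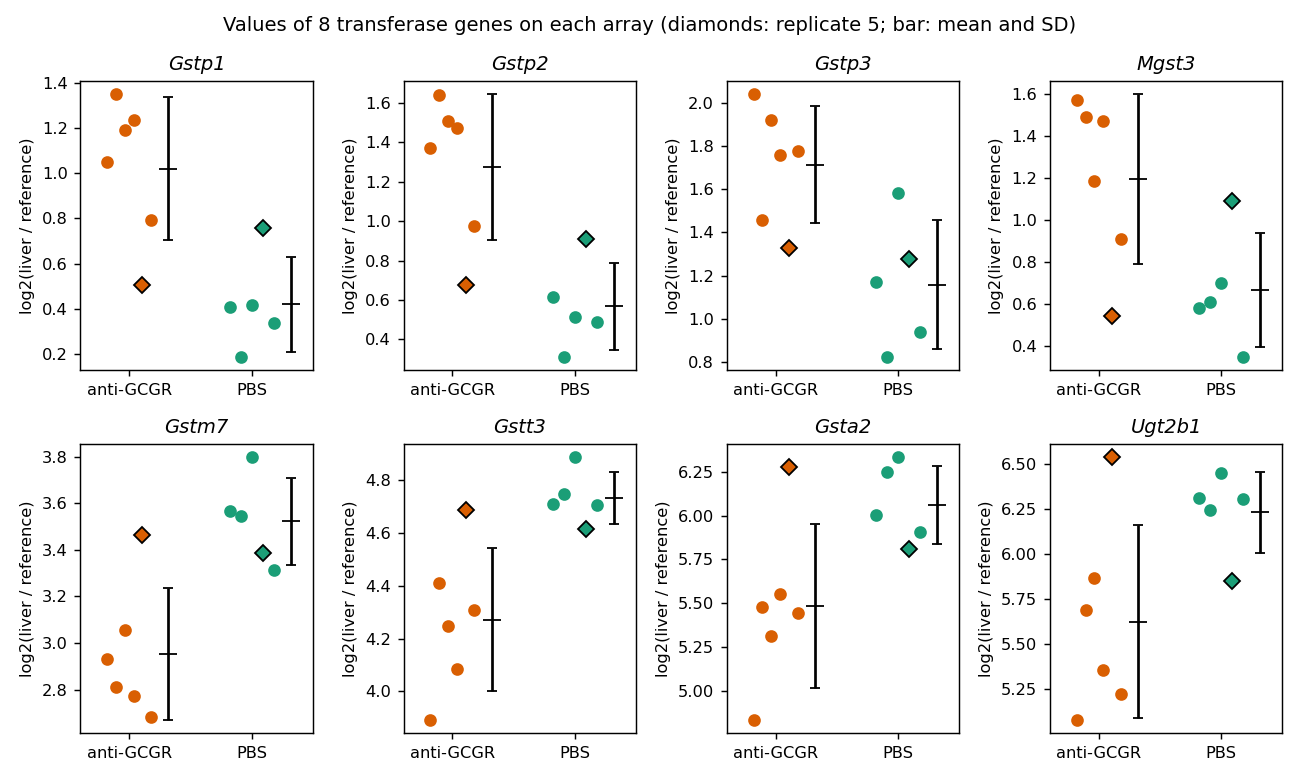
Log2 ratio of liver over reference on each array (vertical axes) for 8 transferase genes, anti-GCGR on the left and PBS on the right of each panel. Diamonds mark replicate 5 of each group, and bars give the mean and SD of 6 anti-GCGR or 5 PBS arrays. The anti-GCGR diamond lies among the PBS points for Gstp1, Gstp2, Gstp3, Mgst3, Gstm7, Gstt3 and Gsta2 and just above them for Ugt2b1.

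The mu class, whose enzymes conjugate epoxides and quinones in liver, held 7 tested genes that lay on both sides of 0. Gstm7 was the one that fell. It had 2.68 (lowest), 2.87 (median) and 3.46 (highest) in anti-GCGR livers against 3.57, 3.54, 3.80, 3.39 and 3.31 in PBS livers. The highest anti-GCGR value was that of replicate 5, and the other 5 arrays of that group lay below all PBS arrays. Gstm7 was thus 1.48-fold lower (log2 fold change -0.57 ± 0.13, limma adjusted p = 0.0150), and -0.67 ± 0.09 without replicate 5 (adjusted p = 0.00038). It was lower on each slide, by -0.83, -0.25 and -0.56 on slides 1, 2 and 3. Its second probe gave -0.36 and passed as well. With the scanner software's ratio it was -0.51, just short of the threshold (adjusted p = 0.0529).

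Gstm1, an abundant mu-class enzyme of mouse liver, had 4.64 (lowest), 5.02 (median) and 5.30 (highest) in anti-GCGR livers against 4.75, 4.41, 4.88, 4.94 and 4.37 in PBS livers. The groups overlapped, with anti-GCGR replicates 5 and 6 inside the PBS range. This difference of 0.35 ± 0.13 in log2 units did not pass by limma (adjusted p = 0.0942), and it became 0.43 ± 0.12 without replicate 5 (adjusted p = 0.0222). Slides 1, 2 and 3 gave 0.31, 0.0037 and 0.61 for Gstm1. Of the others, Gstm5 differed by 0.34, Gstm4 by 0.24 and Gstm3 by 0.13, and Gstm2 by -0.39 and Gstm6 by -0.22, none past the threshold (adjusted p = 0.0515 to 0.158).

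The 7 mu-class genes lie side by side on chromosome 3, and in chromosome order (RefSeq, GRCm38.p6) the values were 0.34 for Gstm5, -0.57 for Gstm7, -0.22 for Gstm6, 0.13 for Gstm3, -0.39 for Gstm2, 0.35 for Gstm1 and 0.24 for Gstm4. The sign changed several times along the cluster, although the adjacent Gstm7 and Gstm6 were both below 0 and the adjacent Gstm1 and Gstm4 both above it. Probes of 1 gene mostly agreed, with 3 probes of Gstm2 between -0.39 and -0.32. Gstm6 was an exception, as its 3 probes ran from -0.39 to 0.02, and among the 15 transferase genes with several kept probes only it and Ugt1a6b had probes of opposite sign. The Cy3 reference signal comes from the same reference RNA on every array. It differed between the groups by 0.59 log2 units for Gstm3 and by -0.55 for Gstm6. For the 5 genes past the threshold it differed by -0.14 to 0.02. It also differed for other transferases, by -0.29 for Gstk1, -0.27 for Ugt2b5, -0.26 for Ugt2a3 and 0.10 for Ugt1a6b. On the same scale the Cy5 signal of these genes differed by -0.34, -0.28, -0.38 and -0.06. With the Cy5 channel alone Gstm3 differed by 0.74 and Gstm6 by -0.82.

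**Figure D3:**
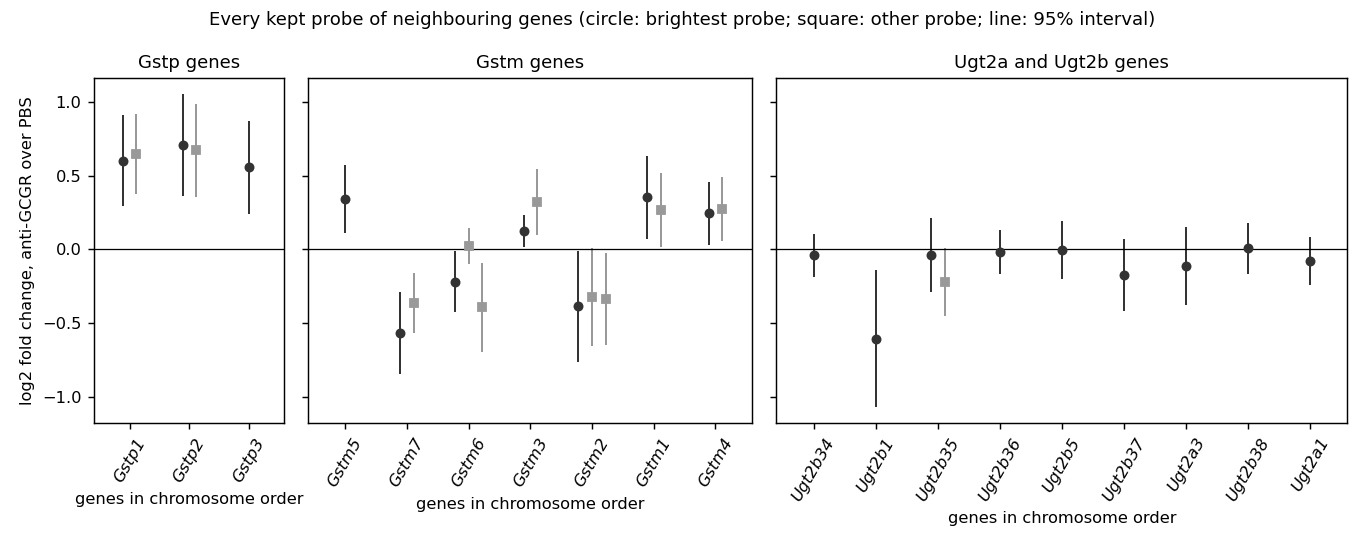
Log2 fold change, anti-GCGR over PBS (vertical axis, log2 units), of every kept probe of genes in 3 clusters, in chromosome order, with 95% intervals as lines. Circles are the brightest probe of a gene and squares its other probes. All Gstp probes lie above 0, Gstm probes lie on both sides of 0, and in the Ugt2 cluster Ugt2b1 lies farthest from 0.

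The 4 alpha-class genes, whose enzymes conjugate products of lipid peroxidation and reduce organic peroxides, all had values below 0. With loess, all arrays and the brightest probe of each gene, none passed. With median centring and no loess, Gsta1, Gsta2 and Gsta4 passed as lower (limma, adjusted p = 0.0310, 0.0254 and 0.0454). With the scanner software's ratio or the Cy5 channel alone, none of the 4 passed. Gsta3 passed as lower with the mean of its probes (limma, adjusted p = 0.0346). Gsta2 had the lowest value, with 4.84 (lowest), 5.46 (median) and 6.28 (highest) in anti-GCGR livers against 6.00, 6.25, 6.34, 5.81 and 5.91 in PBS livers. Only anti-GCGR replicate 5 reached the PBS range, and replicate 1 was the lowest. Its difference was -0.58 ± 0.20 in log2 units (limma, adjusted p = 0.0647), and -0.74 ± 0.14 without replicate 5 (adjusted p = 0.00224). On slides 1, 2 and 3 it was -0.98, 0.07 and -0.70, so it did not hold on slide 2. Gsta1 differed by -0.44, Gsta4, which acts on the lipid aldehyde 4-hydroxynonenal, by -0.28, and Gsta3 by -0.17. A second probe of Gsta3 gave -0.31 and passed in the fit of all kept probes (limma, adjusted p = 0.0252).

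In the theta class, whose enzymes act on small halogenated compounds and sulfate esters, Gstt3 fell. It had 3.89 (lowest), 4.28 (median) and 4.69 (highest) in anti-GCGR livers, whereas PBS livers had 4.71, 4.75, 4.89, 4.62 and 4.71. The PBS values lay close together, and only anti-GCGR replicate 5 overlapped them. Gstt3 was 1.38-fold lower (log2 -0.46 ± 0.11, limma adjusted p = 0.0202), with a log2 difference of -0.54 ± 0.09 without anti-GCGR replicate 5. The call was lost without PBS replicate 4 (adjusted p = 0.0516). Slides 1, 2 and 3 gave -0.81, -0.07 and -0.45. Its neighbours on chromosome 10 differed by -0.04 (Gstt1) and 0.21 (Gstt2) and did not pass.

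Gsto1, an omega-class enzyme that reduces dehydroascorbate, had -0.27 (lowest), -0.10 (median) and 0.38 (highest) in anti-GCGR livers against 0.36, 0.49, 0.45, 0.08 and 0.34 in PBS livers. The groups overlapped through anti-GCGR replicates 3 and 5 and PBS replicate 5. Gsto1 differed by -0.36 ± 0.13 log2 units, which did not pass by limma (adjusted p = 0.0722), and by -0.44 ± 0.11 without anti-GCGR replicate 5 (adjusted p = 0.0121). Within slides 1, 2 and 3 the values were -0.67, 0.09 and -0.36. Gsto2 differed by -0.05. Gstk1, the kappa enzyme, had 4.74 (lowest), 4.76 (median) and 4.88 (highest) in anti-GCGR livers against 4.90, 4.82, 4.87, 4.70 and 4.91 in PBS livers. These values overlapped almost fully, with a log2 fold change of -0.05 ± 0.05 and a 95% interval of -0.16 to 0.07.

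Among the microsomal enzymes, Mgst3, a glutathione transferase and peroxidase that can form leukotriene C4, had 0.54 (lowest), 1.33 (median) and 1.57 (highest) in anti-GCGR livers against 0.58, 0.61, 0.70, 1.09 and 0.35 in PBS livers. Anti-GCGR replicates 5 and 6 lay within the PBS range, whose top was PBS replicate 5. Mgst3 differed by 0.53 ± 0.18 log2 units, which did not pass by limma (adjusted p = 0.0675), and by 0.66 ± 0.14 without anti-GCGR replicate 5 (adjusted p = 0.00584). By slide, from 1 to 3, the values were 0.88, -0.08 and 0.57. Mgst2, which also forms leukotriene C4, differed by 0.16 (adjusted p = 0.0698) and Mgst1, the liver's main microsomal form, by 0.05.

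Of the 14 glucuronosyltransferases none passed with loess, all arrays and the brightest probe of each gene. Of them, 12 had log2 fold changes whose 95% intervals lay between -0.42 and 0.22. The values of Ugt2b1 and Ugt1a10 were farther from 0. Ugt2b1, a steroid and drug glucuronidating enzyme, had 5.08 (lowest), 5.52 (median) and 6.54 (highest) in anti-GCGR livers against 6.31, 6.24, 6.45, 5.85 and 6.30 in PBS livers. Anti-GCGR replicate 5 was the highest of all 11 arrays, and PBS replicate 5 was the lowest of its group.

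Ugt2b1 differed by -0.61 ± 0.22 log2 units (limma, adjusted p = 0.0797), and by -0.79 ± 0.15 without anti-GCGR replicate 5 (adjusted p = 0.00235). On slides 1, 2 and 3 it was -1.16, 0.26 and -0.73. The reference signal of Ugt2b1 and of Ugt2b35 was not well above background on any array, so their levels over reference are not well defined. Ugt2b1 differed by -0.85 with the Cy5 channel alone, but by -0.29 with the scanner software's ratio (limma, adjusted p = 0.627). In the cluster on chromosome 5 its 8 tested neighbours of the Ugt2a and Ugt2b families differed by -0.18 (Ugt2b37) to 0.01 (Ugt2b38). Ugt2b37, whose reference signal was well above background on 7 of the 11 arrays, differed by -0.67 with the scanner software's ratio (adjusted p = 0.164).

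Ugt1a10, 1 of several Ugt1a transcripts that share their last exons and differ in the first, had 0.32 (lowest), 0.79 (median) and 1.39 (highest) in anti-GCGR livers against 1.34, 1.98, 2.16, 0.68 and 1.41 in PBS livers. The spread was wide in both groups, and PBS replicate 5 lay below 4 of the 6 anti-GCGR arrays. Ugt1a10 differed by -0.68 ± 0.26 log2 units (limma, adjusted p = 0.0944), and by -0.79 ± 0.25 without anti-GCGR replicate 5 (adjusted p = 0.0381). On slides 1, 2 and 3 it was -0.96, 0.23 and -0.90, and a second probe gave -0.16. Ugt1a6a and Ugt1a6b, which act on planar phenols, differed by -0.02 and -0.16, and the second probe of Ugt1a6b by 0.21.

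Ugt2a1, known as an olfactory enzyme, had 0.17 (lowest), 0.40 (median) and 0.45 (highest) in anti-GCGR livers against 0.36, 0.27, 0.39, 0.50 and 0.67 in PBS livers. The groups overlapped, with a difference of -0.08 ± 0.08 log2 units (limma, adjusted p = 0.524). With the scanner software's ratio Ugt2a1 differed by -0.52 and did not pass either (adjusted p = 0.100). Ugt3a2, which uses UDP-sugars other than UDP-glucuronate, had 4.76 (lowest), 4.85 (median) and 4.98 (highest) in anti-GCGR livers against 4.91, 4.71, 4.77, 4.73 and 4.93 in PBS livers. These ranges also overlapped, and the log2 fold change was 0.06 ± 0.06 (95% interval -0.07 to 0.19).

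The array that stood apart did so among the transferases as well. Anti-GCGR replicate 5 lay inside the PBS range for 30 of the 37 genes, where the other anti-GCGR arrays did so for 16 to 19. Of the 6 anti-GCGR arrays it was the closest to the PBS mean for 17 genes, each of the others for 2 to 5. Without it, 16 of the 37 genes passed (43.2%), against 24.2% of all genes, of which 14.4% were higher and 9.86% lower. Of the 16 transferases, 6 were higher (Gstm1, Gstm5, Gstp1, Gstp2, Gstp3 and Mgst3) and 10 lower (Gsta1, Gsta2, Gsta4, Gstm2, Gstm6, Gstm7, Gsto1, Gstt3, Ugt1a10 and Ugt2b1) in anti-GCGR livers. Since the array was set aside for where its values lay, these calls are a description. PBS replicate 5, on the same slide, was the closest of the 5 PBS arrays to the anti-GCGR mean for 13 genes. The other PBS arrays were the closest for 4 to 10 genes each.

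**Figure D4:**
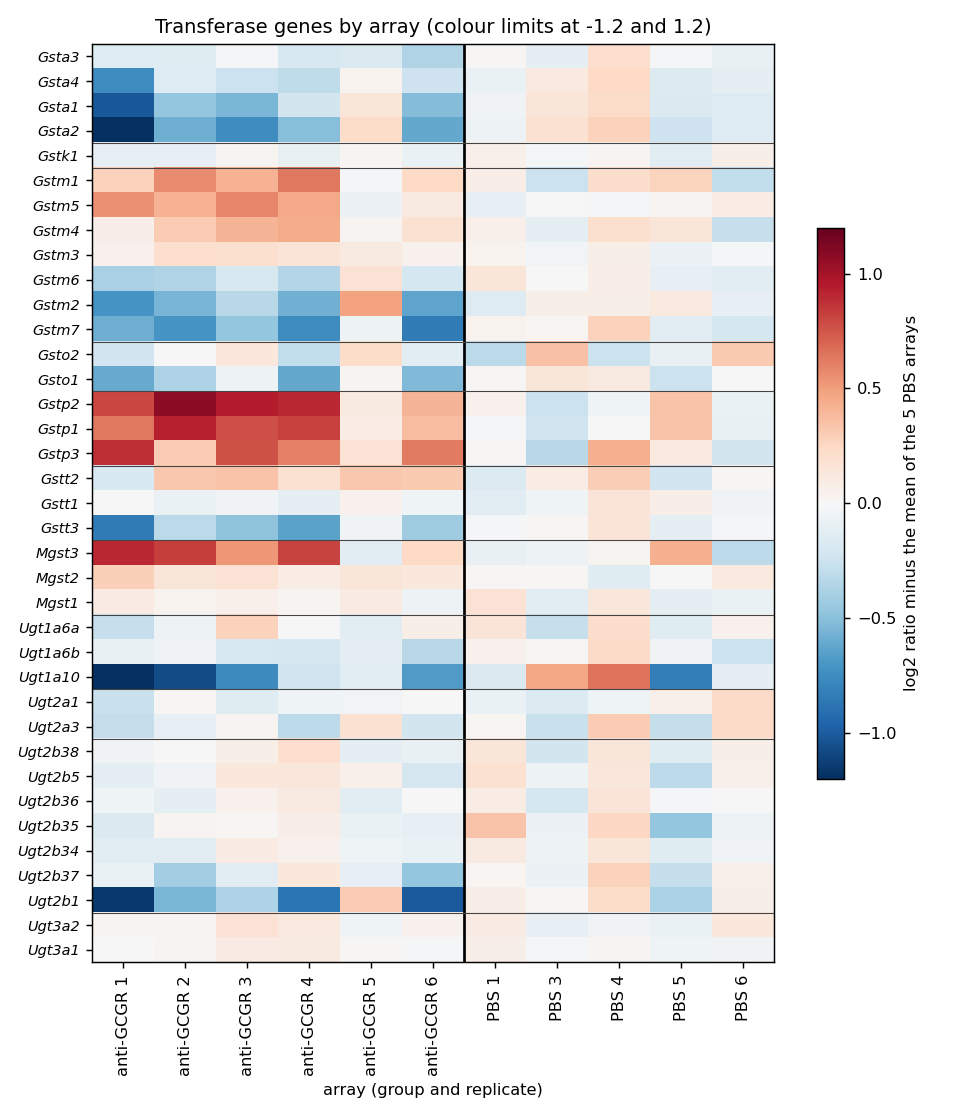
Log2 ratio of each of the 37 transferase genes on each array minus the mean of the 5 PBS arrays (colour, log2 units), with genes down the page by family, 6 anti-GCGR arrays on the left of the line and 5 PBS arrays on the right. Anti-GCGR replicate 5 is paler than the other anti-GCGR arrays for Gstp1, Gstp2, Gstp3, Gstm7, Gstt3 and Mgst3.

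**Figure D5:**
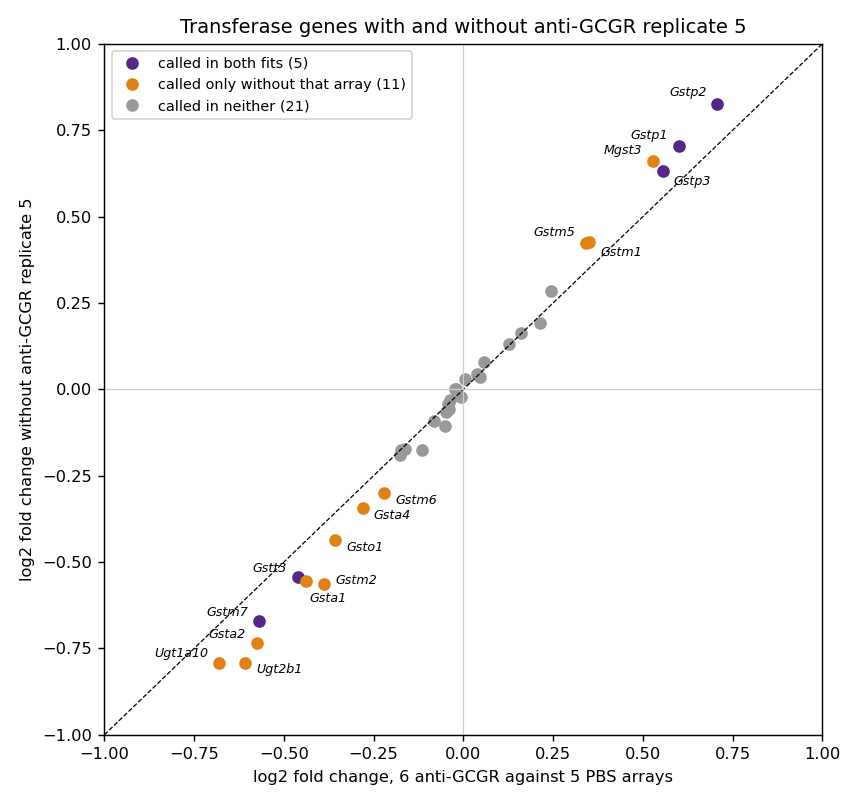
Log2 fold change of each transferase gene with all 11 arrays (horizontal axis) and without anti-GCGR replicate 5 (vertical axis), both in log2 units, with a dashed line of equal values. The 5 genes called in both lie farther from 0 without that array, and 11 further genes passed only without it.

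Other genes of the conjugation pathways were counted in 9 lists that hold 124 tested genes. Of these, 21 rose and 7 fell in anti-GCGR livers, 22.6% against 14.6% of all genes; without anti-GCGR replicate 5, 28 rose and 12 fell (32.3% against 24.2%). The enzymes that form NADPH, which keeps glutathione reduced, had 5 of 7 members higher, with and without anti-GCGR replicate 5. Me1, malic enzyme, averaged a log2 ratio of 2.65 ± 0.76 (SD, n = 6) in anti-GCGR livers and 0.79 ± 0.64 (n = 5) in PBS livers, a difference of 1.86 ± 0.36 (SE, adjusted p = 0.00855 by limma). The pentose phosphate enzymes Pgd and Tkt rose by 1.06 and 0.92, and Taldo1 and G6pdx, named after their values were seen, by 0.41 and 0.24. In each of the 11 fits that left out 1 array, Me1, Pgd, Tkt, Ggct, Gpx7, Glrx5, Abcg2, Srxn1, Cbr3, Tiparp and Cyp3a44 passed. The remaining pathway genes named by rule missed the threshold in 1 to 10 of the 11 fits. Lap3 and Txn2 missed it in 10, Hagh and Papss2 in 9, and Gss, Blvrb and Nr1h4 in 8. Gpx3 and Ppara missed it in 7, Gadd45b, Ephx1 and Uxs1 in 6, Ahr in 4 and Mafg in 1.

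For glutathione synthesis and breakdown, 2 of 16 genes rose and 1 fell, and 2 and 2 passed without anti-GCGR replicate 5. Ggct, which cleaves gamma-glutamyl peptides, rose by 0.47 ± 0.09 (limma adjusted p = 0.00855), and Gss, glutathione synthetase, by 0.28 ± 0.08 (adjusted p = 0.0315). Lap3, a leucine aminopeptidase, fell by 0.44 on the log2 scale. The subunits of the rate-limiting ligase, Gclc and Gclm, named after their values were seen, differed by 0.01 and 0.18 and did not pass. A further list of 26 genes held other enzymes that use or reduce glutathione, together with thioredoxins, thioredoxin reductases and Alox5ap. In it the peroxidases Gpx7 and Gpx3 and the glutaredoxin Glrx5 rose (0.71, 0.32 and 0.34). The glyoxalase Hagh and mitochondrial thioredoxin Txn2 fell (-0.40 and -0.28). Without that array 6 of the 26 passed as higher and 2 as lower.

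For the supply of UDP-glucuronate and the export of glucuronides, 2 of 11 genes rose, the exporter Abcg2 by 0.32 ± 0.07 (limma adjusted p = 0.0167) and Uxs1, which turns UDP-glucuronate into UDP-xylose, by 0.18 ± 0.05 (adjusted p = 0.0279). Ugdh, which makes UDP-glucuronate and was named after its value was seen, differed by 0.04. Without anti-GCGR replicate 5, 4 of the 11 passed, all higher. Of 9 genes of heme and bilirubin handling, 1 passed, the biliverdin reductase Blvrb, which rose by 0.63 ± 0.18 (adjusted p = 0.0373), and 3 passed as higher without that array.

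Among 18 tested targets of NRF2, 4 rose and none fell, and without anti-GCGR replicate 5 the counts were 6 and 1. Cbr3, a carbonyl reductase, averaged a log2 ratio of -0.57 ± 0.93 (SD, n = 6) in anti-GCGR livers and -2.22 ± 0.14 (n = 5) in PBS livers, a difference of 1.64 ± 0.36 (SE, adjusted p = 0.0124 by limma). The sulfiredoxin Srxn1 rose by 0.84, with no overlap between the groups, the epoxide hydrolase Ephx1 by 0.32 and the aldehyde oxidase Aox1, named after its value was seen, by 0.30. Nqo1, the quinone reductase often read for NRF2 and named after its value was seen, differed by -0.02. Of 27 targets of CAR and PXR, Ephx1 and Gadd45b rose, and Cyp3a44 and the sulfate donor synthase Papss2 fell (-1.23 and -0.69), and without that array 4 were higher and 4 lower. Of 7 AHR targets 1 passed with and without it, Tiparp, which rose by 0.72.

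Of 16 regulators of conjugation genes, Ppara and Nr1h4, nuclear receptors for fatty acids and bile acids, rose by 0.32 and 0.23, and Mafg, a partner of NRF2, and Ahr fell (-0.37 and -0.33). Without anti-GCGR replicate 5 the counts were 2 higher and 3 lower. Nfe2l2, the gene of NRF2, and Nr1i3, that of CAR, were named after their values were seen, and differed by 0.29 and 0.04 without passing. In promoter windows of 33 of the 37 tested genes (41 windows, RefSeq), the core of the antioxidant response element bound by NRF2, TGACNNNGC on either strand, was found in 4 windows, those of Gsta3, Gstm5, Gstm7 and Mgst1, and in 12.4% of all 32851 windows. TGANTCA occurred in 9 of the 41 windows and in 7.81% of all. The AHR core GCGTG occurred in 8 of 41 and 32.4% of all, and the cAMP response element TGACGTCA in 0 of 41 and 1.79% of all. Such matches are letters in a window and no evidence of binding.

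Markers of liver cell types were set beside these values. Hepatocyte markers were high over reference on every array, with list means of 6.21 to 6.45 log2 units on anti-GCGR arrays and 6.26 to 6.48 on PBS arrays. With all arrays 0 of 9 passed, and without anti-GCGR replicate 5 Apoa1 was higher (0.44) and Tat and Cps1 lower (-0.36 and -0.42). Cholangiocyte markers had 0 of 6 past the threshold with all arrays and Sox9 as 1 of 6 without that array, higher by 0.46. Lymphocyte and adipocyte markers had 0 of 6 and 0 of 4 in both fits.

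Higher in anti-GCGR livers were 3 of 6 stellate cell and fibroblast markers (Col1a1, Col3a1 and Lrat), 2 of 6 endothelial markers (Stab2 and Cdh5), 1 of 6 Kupffer cell markers (Clec4f) and 2 of 3 red cell markers (Slc4a1 and Hba-a1). Without anti-GCGR replicate 5 these counts were 4, 3, 2 and 2, with none lower. The stellate list averaged -0.90 to -0.20 on anti-GCGR arrays and -1.28 to -0.95 on PBS arrays. The endothelial list averaged 2.99 to 3.53 on anti-GCGR arrays and 2.92 to 3.14 on PBS arrays.

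Zone markers of the hepatocytes also differed. Among 10 pericentral markers Oat, Lhpp and Slc1a2 fell (-2.08, -1.33 and -0.47), while Glul, glutamine synthetase, named after its value was seen, differed by 0.45 ± 0.16 (SE) without passing (limma, adjusted p = 0.0672). Without anti-GCGR replicate 5 the same 3 were lower and Glul was higher, by 0.60 ± 0.09 (adjusted p = 0.000638). Among 8 periportal markers Ass1 and Gls2 fell (-0.81 and -0.72), and without that array Hal and Pck1 were lower as well (-0.31 and -0.29). The pericentral list averaged 3.96 to 4.54 on anti-GCGR arrays and 4.34 to 4.66 on PBS arrays, and the periportal list 4.83 to 5.39 on anti-GCGR arrays and 5.22 to 5.54 on PBS arrays. The part of these cell type and zone differences in the values of the transferases was not tested.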

How the data were processed

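Liver RNA of 6 anti-GCGR and 5 PBS db/db samples was hybridised to 2-colour Agilent arrays on 3 slides, liver in Cy5 and reference in Cy3, with no dye swap. The scanner software was Agilent Feature Extraction, 11 per the submitters' processing notes and 11.5.1.1 per the file headers. Median spot and background intensity of each dye stand unlogged and uncorrected in the deposited files. They also give, per the file headers, a log10 ratio of background-subtracted and dye-normalized signals, and flags for spots above background, uneven or saturated (no gene spot was saturated). A table of log2 ratios was also deposited by the authors; how it was made is not given in the sources. It ran as Cy5 over Cy3, lay a median of 0.0033 from the values used here (lowest correlation 0.99996), had column medians between -0.0028 and 0.0081, and served as an alternative.

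Intensities were taken into limma 3.58.1 (R 4.3.3), corrected with normexp (offset 50) and normalized by loess within arrays. The design had assumed mean spot signals; the files hold medians. Uneven spots were left out and spots of a probe averaged. Accessions of the probes were matched to RefSeq genes (GRCm38.p6), which named 26581 of 39429 probes. Kept probes had Cy5 marked as above background on 5 or more of 11 arrays, and the brightest stood for its gene. Both groups were compared by lmFit and eBayes over 15970 genes, two-sided, and the fitting code was tested on simulated data. Groups and replicate numbers came from sample titles. Same-numbered samples did not deviate together (correlations -0.13 to 0.14), so numbers were not treated as pairs.

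Values per array are given for transferases past the threshold, for the gene with the smallest p in each family and for the 5 largest and 5 lowest fold changes (14 genes). From each other list the 3 largest rises and falls past the threshold were named, or else the gene with the smallest p; exceptions are marked. Transferases and lists were chosen with earlier results of these data known. Alternatives changed the normalization, background correction, probe filter, probe choice, block terms and arrays used.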

Additional observations from a re-analysis of the deposited data

Results flagged for a closer look

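The highest and lowest array of each group were compared with the rest of their group for the 37 transferase genes, 74 groups in all, by the gap to the nearest other array as a share of the group's range (Dixon's test). Of these, 3 exceeded the 95% critical value, and chance alone gives about 1 in 20. Gstm2, a mu-class transferase, had a log2 ratio of 2.19 on anti-GCGR replicate 5, where the other anti-GCGR arrays had 0.99 to 1.37, and that value also lay above all 5 PBS arrays. Gstm6, its relative in the same cluster, had 5.62 on anti-GCGR replicate 5 against 5.05 to 5.25 on the other anti-GCGR arrays. Gstt2, a theta-class transferase, had 3.07 on anti-GCGR replicate 1 against 3.43 to 3.59 on the others. Without anti-GCGR replicate 5 the log2 fold change of Gstm2 was -0.56 in place of -0.39, and that of Gstm6 was -0.30 in place of -0.22.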

How the results depend on the processing

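The median log2 fold change of the transferases was -0.04, and became -0.16 with median centring and no loess and -0.20 with the Cy5 channel alone. Within slides 1, 2 and 3 it was -0.12, 0.072 and -0.0019, and under the other alternatives -0.08 to -0.00063. Of the counts, 3 genes higher and 2 lower became 2 and 1 with the scanner software's own ratio, 3 and 9 with median centring and no loess, and 5 and 4 with the Cy5 channel alone. These scalings also moved the share of calls that were higher over all genes, 61.3% with loess, to 45.2%, 21.3% and 51.3%, while the median of all genes stayed between -0.06 and 0.02. Without background correction Gstp3 did not pass (adjusted p = 0.0596). Leaving out each array in turn gave 7.76% to 24.2% of all genes past the threshold, 2 to 6 transferases higher and 1 to 10 lower, the largest counts without anti-GCGR replicate 5, and 14 to 40 pathway genes where 28 passed with all arrays; Gstp1, Gstp2 and Gstm7 passed in 11 of 11 such fits, Gstt3 in 10 and Gstp3 in 4. The counts of pathway genes were 15, 16 and 16 without PBS replicate 1, 3 or 6, and 18, 16, 18, 14 and 18 without anti-GCGR replicate 1, 2, 3, 4 or 6. With the replicate number as a block, over the 10 arrays whose numbers both groups have, 0 transferases were higher and 0 lower by limma and 9 pathway genes passed, where 6.57% of all genes passed, against 14.6% with no block. Under that block the adjusted p of the 5 genes called without it was 0.0550 to 0.0825, and no correlation of same-numbered samples exceeded 0.141. Signal limits Ugt2b1 and Ugt2b35, whose reference spots were not well above background on any array, Ugt2b37, where they were on 7 of 11, and to a lesser degree Gstp3 and Ugt2a1, where they were on 10.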
